A study of Mus musculus with 18 samples.

Results

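The genes for 7 main proteins of mouse milk were followed in sorted mammary cells of animals that had never been pregnant: the caseins Csn1s1, Csn2, Csn1s2a and Csn1s2b, the whey proteins Lalba and Wap, and the milk mucin Glycam1. They were taken by name, as the 7 rows whose Ensembl identifiers carry these symbols in GENCODE M21, out of 52636 genes in each file. RNA came from nulliparous MMTV-Cre mice aged 12 weeks. These mice carry a Cre recombinase driven by the long terminal repeat of mouse mammary tumour virus, a promoter active in mammary epithelium, and since all 18 libraries share it there is no group without the transgene. The labels name no strain and no allele for Cre to act on, and list no treatment. Cells were sorted by CD49f, CD61 and EpCAM after removal of CD31, CD45 and Ter119 positive cells, into 3 populations with 6 libraries each: basal cells of the outer, contractile layer, alveolar progenitors (AP, for which luminal progenitors is another name), and mature luminal cells that sense hormones (HSL, hormone-sensing luminal). Sample numbers 1 to 6 recur in every population and the design text speaks of 6 animals, but no label ties a number to an animal, so p-values below measure the spread between these samples.

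Caseins are phosphoproteins that bind calcium and assemble into micelles, and they make up most of the protein of mouse milk. Lalba encodes alpha-lactalbumin, which joins the galactosyltransferase B4galt1 to form lactose synthase. Wap encodes whey acidic protein, a major whey protein of rodents. Transcription of these genes rises strongly in pregnancy and lactation, when prolactin acting through its receptor and JAK2 activates STAT5, which binds sites of the form TTCNNNGAA together with factors such as C/EBP beta, the glucocorticoid receptor and ELF5. Glycam1 encodes a mucin-like protein that is secreted into milk and is also made by the high endothelial venules of lymph nodes.

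The 4 caseins lie in 158.219 kb of chromosome 5 (GRCm38), Csn1s1 at chr5:87666208-87682578 on the plus strand, Csn2 at chr5:87692624-87699630 on the minus strand, Csn1s2a at chr5:87774567-87788797 and Csn1s2b at chr5:87808082-87824426, both on the plus strand. Wap lies at chr11:6635482-6638637, Lalba at chr15:98480400-98482721 and Glycam1 at chr15:103562759-103565081, all on the minus strand. None of the 7 spans overlaps another annotated gene, which matters here because 87.1% of the 1319 protein-coding genes lying wholly inside another gene's span are listed at 0 in every library, against 22.9% of 11756 with no overlap. Csn3, the kappa-casein gene that belongs to the same cluster, is one of the genes wholly inside another span and is listed at 0 throughout, so its level could not be read.

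RefSeq promoter windows (GRCm38.p6) were at hand for 6 of the 7 genes, all but Csn1s2b. In the 250 bases before the transcription start the STAT5 motif TTCNNNGAA, which reads the same on both strands, occurs in 3 of the 6 windows: those of Csn1s1, Csn2 and Glycam1. It occurs in 7.02% of 32851 promoter windows of this length. The 30 bases around each match are shown because these 3 genes were highest in sample 1 in all 3 populations. None of the other 4 was. This coincidence, described further on, was seen after the values were known, and a link was not tested. In HSL the place of Glycam1 rests on 2 counts, and Csn1s2b has no window. Csn1s2a, whose window lacks the motif, was also highest in sample 1 in basal and HSL libraries. Capitals mark the motif, all sequences run 5′ to 3′ on the strand of the gene, and the windows are chr5:87666098-87666127, chr5:87699499-87699528 and chr15:103565207-103565236.
Csn1s1: tttgtaacaaTTCTTAGAAtttatgtaaaa
Csn2: tcacgtagacTTCTTGGAAttgaagggact
Glycam1: gccaactcatTTCCCAGAAacaccaattcc

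The motif starts 100 bases before the RefSeq start of Csn1s1, 93 before that of Csn2 and 145 before that of Glycam1. For Csn2 only 45 of the 250 bases lie outside GENCODE M21 exons, so in that annotation the motif lies within an exon. In Csn1s1 a match to TTNNGNAA, a form of the C/EBP site, follows the motif at 90 to 83 bases before the start. That looser motif, searched on both strands, is found in 36.845% of all windows and in 5 of the 6 windows here, all but that of Lalba. For Lalba and Wap, the whey protein genes, the stretch upstream of the annotated exons is shown for contrast, since neither holds TTCNNNGAA. The Lalba stretch covers bases -250 to -39 (chr15:98482722-98482933, 212 bases) and the Wap stretch bases -250 to -1 (chr11:6638650-6638899, 250 bases). In Wap the capital-free run holds 1 match to the ETS core AAGGAA, at -109 to -104, a motif present in 22.562% of windows on either strand. A match is a run of letters and not evidence of binding, and no binding was measured in these samples.
Lalba: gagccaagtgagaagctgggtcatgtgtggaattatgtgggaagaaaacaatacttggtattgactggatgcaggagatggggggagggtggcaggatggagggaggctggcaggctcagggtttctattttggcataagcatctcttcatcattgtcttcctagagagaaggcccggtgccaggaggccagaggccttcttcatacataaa
Wap: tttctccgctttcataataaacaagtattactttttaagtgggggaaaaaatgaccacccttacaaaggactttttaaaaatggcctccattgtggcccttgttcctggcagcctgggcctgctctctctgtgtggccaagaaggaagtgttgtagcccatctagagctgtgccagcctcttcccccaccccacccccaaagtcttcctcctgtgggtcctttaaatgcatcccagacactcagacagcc

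Library depth was 26516293 to 91095830 gene counts, with medians of 44984320 for basal, 44805018 for AP and 42739834 for HSL. Levels are given in CPM, read counts relative to library size after trimmed-mean (TMM) scaling. The gates matched their labels: all 6 basal markers were lower in AP and in HSL than in basal libraries (beside 23.1% and 30.6% of all genes), all 6 alveolar progenitor markers were higher in AP than in basal and lower in HSL than in AP, and all 6 hormone-sensing markers, Prlr among them, were higher in HSL than in either other population (beside 27.8% of all genes against basal and 19.8% against AP). Sample 1 stood apart in all 3 populations. Its AP library was the highest of the 6 AP libraries for 29.99% and the lowest for 27.9% of 16471 genes tested. In that library the 6 alveolar progenitor markers summed to 2887 CPM, against 4451 to 6143 in the other 5, and the 5 leukocyte markers summed to 80.7 CPM, against 3.93 to 62.7. In HSL sample 1 the hormone-sensing markers summed to 2832 CPM, against 5222 to 6126 in the other HSL libraries. Alveolar progenitor markers there summed to 685 CPM, against 184 to 488, and leukocyte markers to 97.0, against 3.33 to 70.8. In basal sample 1 the basal markers summed to 22511.5 CPM, against 33057 to 40660, while leukocyte markers, at 227, lay inside 53.4 to 250. For Csn1s1, Csn2, Csn1s2a and Lalba, the comparisons with AP are therefore given with and without sample 1. Group means, the genes of other lists and the correlations between genes include sample 1 unless stated. The part of cell make-up in these results was not tested.

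**Figure D1:**
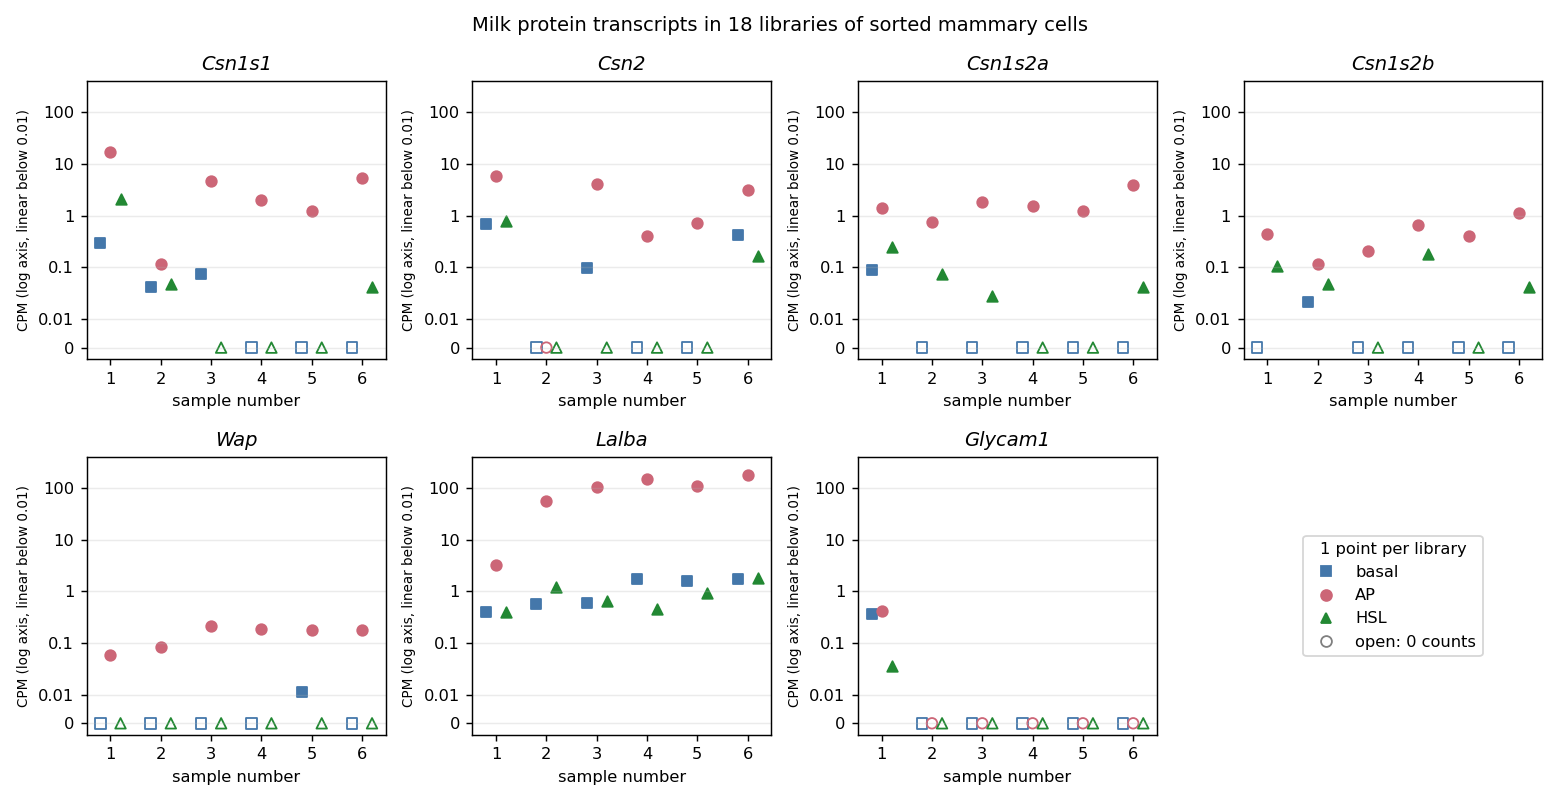
Level of each milk protein gene in every library, in CPM on a log axis that is linear below 0.01, against sample number, with squares for basal, circles for AP and triangles for HSL libraries and open symbols for 0 counts. Lalba reached 179 CPM in AP, whereas Wap stayed at or below 0.210 CPM and Glycam1 had counts in sample 1 alone.

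Before pregnancy, milk protein transcripts were found mainly in AP libraries, and most of them came from Lalba. Summed over the 7 genes, the level ranged from 28.2 to 192.5 CPM in AP, with a median of 113.9, from 0.628 to 2.15 CPM in basal and from 0.639 to 3.62 CPM in HSL libraries. In AP samples 2 to 6, Lalba alone held 90.5% to 98.1% of these counts. The AP library of sample 1 was the exception: caseins held 87.0% of its 1473 milk protein counts (95% exact binomial interval 85.1% to 88.6%) and Lalba 11.3% (9.76% to 13.1%). Weighted by transcript length, the share of Lalba was 93.8% to 98.4% in AP samples 2 to 6 and 17.8% in AP sample 1. All intervals cover counting error only, since amplified reads without molecular identifiers are not independent molecules.

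Per kilobase of the longest principal transcript, the mean AP level was 129 ± 81.9 CPM per kb (SD, n = 6, as for all means below) for Lalba, 3.55 ± 4.36 for Csn1s1, 1.91 ± 1.18 for Csn1s2a, 1.77 ± 1.76 for Csn2, 0.604 ± 0.437 for Csn1s2b, 0.272 ± 0.114 for Wap and 0.112 ± 0.274 for Glycam1. Lalba exceeded the next gene by more than its SD. Each later step between neighbours in the order was smaller than the larger SD of the pair, so neighbours did not differ beyond their spread. Within libraries, Csn1s2a was above Csn1s2b and above Wap in 6 of 6, and Csn1s1 was above Csn2 in 6 of 6 but above Csn1s2a in 2 of 6. The place of Csn1s1 above Csn1s2a rested on sample 1. Over AP samples 2 to 6 their means were 2.63 ± 2.21 and 1.82 ± 1.20 CPM before scaling by length. With transcripts of 1411 and 920 bases, Csn1s1 then lay below Csn1s2a per kb, by less than either SD. With the union of all annotated exons as the length instead, Wap, at 0.149, passed Csn1s2b, at 0.115 CPM per kb.

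The filter on low counts was passed by 4 genes, which entered the test across all genes: Csn1s1, Csn2, Csn1s2a and Lalba. Csn1s2b, Wap and Glycam1 did not pass, and for them values come from a second fit of all 28035 genes with any count. Of the 4 tested genes, 3 were higher in AP than in basal libraries and 4 were lower in HSL than in AP libraries. Over all genes tested, 21.5% were higher in AP than in basal and 20.1% were lower in HSL than in AP. Blocked by sample number, 4 were higher in AP than in basal, beside 4400 of 16471 genes. In that fit 4 were lower in HSL than in AP, beside 4165. Csn1s1, Csn2 and Csn1s2a passed the filter mainly through AP libraries, where their means were highest, so their calls beside these shares are no test. They held few counts in basal and HSL libraries, so a missing call between these populations is no evidence of equal levels. None of the 4 was called between HSL and basal libraries, where 58.4% of all genes were called in either direction. DESeq2 and limma-voom also called 0 of them, and 0 had an unadjusted edgeR p under 0.05, while 1, Csn1s2a, had an unadjusted DESeq2 p of 0.0498. There the log2 changes were 2.48 ± 1.45 for Csn1s1, -0.20 ± 1.45 for Csn2 and 2.13 ± 1.06 for Csn1s2a (edgeR, adjusted p = 0.153, 0.918 and 0.0943), and without sample 1 Csn1s2a was called, at 3.49 (edgeR, adjusted p = 0.0261). Without sample 1, Csn1s1 no longer passed the filter, and the 3 genes left were all higher in AP than in basal, beside 4127 of 16450 genes. They were also all lower in HSL than in AP, beside 4062. For these bulk libraries, fewer cells making a transcript and less transcript per cell cannot be told apart.

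Csn1s1, the alpha-s1-casein gene, measured 16.9, 0.118, 4.62, 1.97, 1.20 and 5.23 CPM in AP samples 1 to 6, from 881, 7, 220, 125, 53 and 205 counts. In basal libraries it had 13, 2 and 3 counts in samples 1, 2 and 3 and none in the others. In HSL libraries it had 117 counts, or 2.06 CPM, in sample 1, 2 counts in sample 2, 1 count in sample 6 and none elsewhere. Every AP library was above the basal and the HSL library of the same number, but the ranges overlapped, since AP sample 2 lay below basal sample 1 and HSL sample 1. Csn1s1 was higher in AP than in basal by 6.19 ± 1.59 on the log2 scale (SE, edgeR quasi-likelihood test, adjusted p = 0.00368). It was lower in HSL than in AP, with a log2 change of -3.72 ± 1.36 (edgeR, adjusted p = 0.0369). This second call was lost when any of samples 2 to 6 was left out (edgeR, adjusted p = 0.0617 without sample 2, 0.0967 without sample 3, 0.0677 without sample 4, 0.0653 without sample 5 and 0.103 without sample 6), while the log2 change stayed between -3.75 and -3.51. It was lost in the fit of all genes with a count as well, at -3.74 (edgeR, adjusted p = 0.0543). Blocked by sample number, the change was -5.14 ± 0.94 (edgeR, adjusted p = 0.000487). Without sample 1, in the fit of all genes with a count, the differences were 6.84 for AP against basal (edgeR, adjusted p = 8.91e-05) and -7.08 for HSL against AP (edgeR, adjusted p = 0.000126).

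Csn2 encodes beta-casein. In AP samples 1 to 6 it measured 5.81, 0, 4.04, 0.395, 0.723 and 3.16 CPM, and the AP library of sample 2 held no Csn2 count at all, which at 3 counts allows up to 0.0504 CPM. The basal libraries held 30, 0, 4, 0, 0 and 12 counts and the HSL libraries 44, 0, 0, 0, 0 and 4. Wherever Csn2 was detected, the AP library of that sample was the highest, and basal and HSL counts appeared only in samples where AP reached at least 3.16 CPM. The log2 difference between AP and basal was 3.61 ± 1.47, which did not pass (edgeR, adjusted p = 0.0546). When the fit was blocked by sample number it was 4.55 and passed (edgeR, adjusted p = 0.000736), as it did without sample 1, at 4.22 (edgeR, adjusted p = 0.0281). Csn2 was lower in HSL than in AP by the narrowest margin of the 4 genes, with a log2 change of -3.80 ± 1.48 (edgeR, adjusted p = 0.0492). That call was lost when any of samples 2 to 6 was left out, with log2 changes of -3.81 to -3.37 and adjusted p from 0.0519 to 0.145 (edgeR), whereas without sample 1 it was -5.93 (edgeR, adjusted p = 0.0105). Blocked by sample number it was -5.09 ± 0.91 (edgeR, adjusted p = 0.000681).

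The alpha-s2-caseins varied less. Csn1s2a was found in all 6 AP libraries, at 1.42, 0.739, 1.79, 1.50, 1.24 and 3.85 CPM. Basal libraries held 4 counts, all in sample 1, and HSL libraries held 14, 3, 1, 0, 0 and 1. No AP library overlapped a basal or an HSL library. Csn1s2a was higher in AP than in basal by 6.72 ± 1.05 (edgeR, adjusted p = 4.10e-05) and lower in HSL than in AP, with a log2 change of -4.58 ± 0.90 (edgeR, adjusted p = 0.000559). Without sample 1 no basal count was left, and both calls held (edgeR, adjusted p = 1.27e-05 for AP against basal, and 9.27e-05 for HSL against AP at a log2 change of -5.91).

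Csn1s2b had the lowest mean AP level per kb of the 4 caseins, although it was below Csn2 in only 4 of 6 AP libraries. AP libraries held 23, 7, 10, 42, 18 and 43 counts, that is 0.118 to 1.10 CPM with a median of 0.424. A single basal count, in sample 2, stood against 143 in AP, and HSL libraries held 6, 2, 0, 8, 0 and 1 counts. AP and basal libraries did not overlap, while HSL sample 4, at 0.176 CPM, lay above AP sample 2. In the fit of all genes with a count, where 13.6% of genes were higher in AP than in basal, Csn1s2b was higher by 6.37 ± 1.05 (edgeR, adjusted p = 8.27e-05). In the same fit it was lower in HSL than in AP, with a log2 change of -2.92 ± 0.82 (edgeR, adjusted p = 0.0131), beside 12.5% of all genes. It was also higher in HSL than in basal, by 3.44 ± 1.04 (edgeR, adjusted p = 0.0126), beside 16.1% of all genes, on 17 counts against 1.

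Lalba had the highest level per kb of the 7 genes in 5 of the 6 AP libraries. In AP samples 1 to 6 it measured 3.20, 55.1, 103, 147, 110 and 179 CPM, from 167, 3280, 4921, 9301, 4857 and 7013 counts. The lowest of samples 2 to 6 was 17.2-fold above sample 1, yet sample 1 still lay above all basal and HSL libraries. Basal libraries ranged from 0.403 to 1.76 CPM with a median of 1.08, and HSL libraries from 0.388 to 1.81 CPM with a median of 0.778, so that Lalba was the only one of the 7 detected in all 18 libraries. It was higher in AP than in basal by 6.49 ± 0.75 (edgeR, adjusted p = 1.23e-06) and lower in HSL than in AP, with a log2 change of -6.82 ± 0.77 (edgeR, adjusted p = 2.39e-06). Between HSL and basal libraries the log2 change was -0.33 ± 0.66 and not called (edgeR, adjusted p = 0.694). Without sample 1 the differences from AP were 6.58 (edgeR, adjusted p = 1.01e-08) and -6.94 (edgeR, adjusted p = 2.35e-08).

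Wap, a late marker of secretory differentiation in the mouse, was barely detected. AP libraries held 3, 5, 10, 12, 8 and 7 counts, 45 in all, which is 0.0575 to 0.210 CPM. No HSL library held a count, and the basal libraries held 1, in sample 5. Wap was thus present in every AP library, at no more than 12 reads. Against the limit that 3 counts over the 6 HSL libraries set, 0.0128 CPM, AP was 11.5-fold higher. The 95% counting interval of the ratio of AP to HSL, with no HSL count, starts at 8.99. Against basal, the ratio of 45 counts to 1 was 44.6, with a 95% counting interval of 7.60 to 1799. The fit of all genes with a count called both differences (edgeR, adjusted p = 0.000559 for AP against basal and 0.000391 for HSL against AP).

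Glycam1 differed from the other 6 in that it was detected in sample 1 alone. Its 40 counts were 16 in basal, 22 in AP and 2 in HSL, or 0.358, 0.422 and 0.0353 CPM. In the other 15 libraries it had none, and 3 counts there correspond to between 0.0337 and 0.123 CPM. No comparison of populations was called (edgeR, fit of all genes with a count, adjusted p = 0.921, 0.276 and 0.269). The 3 high endothelial venule markers did not move together in sample 1. Madcam1 measured 5.31 CPM in basal sample 1 against 0.106 to 1.26 in basal samples 2 to 6, 0.0959 CPM in AP sample 1 against 0 to 0.255, and 0.706 CPM in HSL sample 1 against 0 to 0.366. Chst4 was detected in basal and AP libraries in sample 1 alone, at 0.0224 and 0.0767 CPM, and in HSL sample 1 measured 0.212 CPM against 0 to 0.422 in the others. Ackr1, the most abundant of the 3, was lowest in sample 1 in basal, at 6.41 CPM, and in AP, at 0.633 CPM. Summed over the 3 markers, basal sample 1, at 11.7 CPM, lay within the 7.74 to 26.8 of the basal libraries, and AP sample 1, at 0.805 CPM, was the lowest of 0.805 to 6.67. HSL sample 1, at 3.58 CPM, lay within 0.988 to 4.87, no marker was at 0 in all libraries of a population, and the part of such cells in the Glycam1 counts was not tested.

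**Figure D2:**
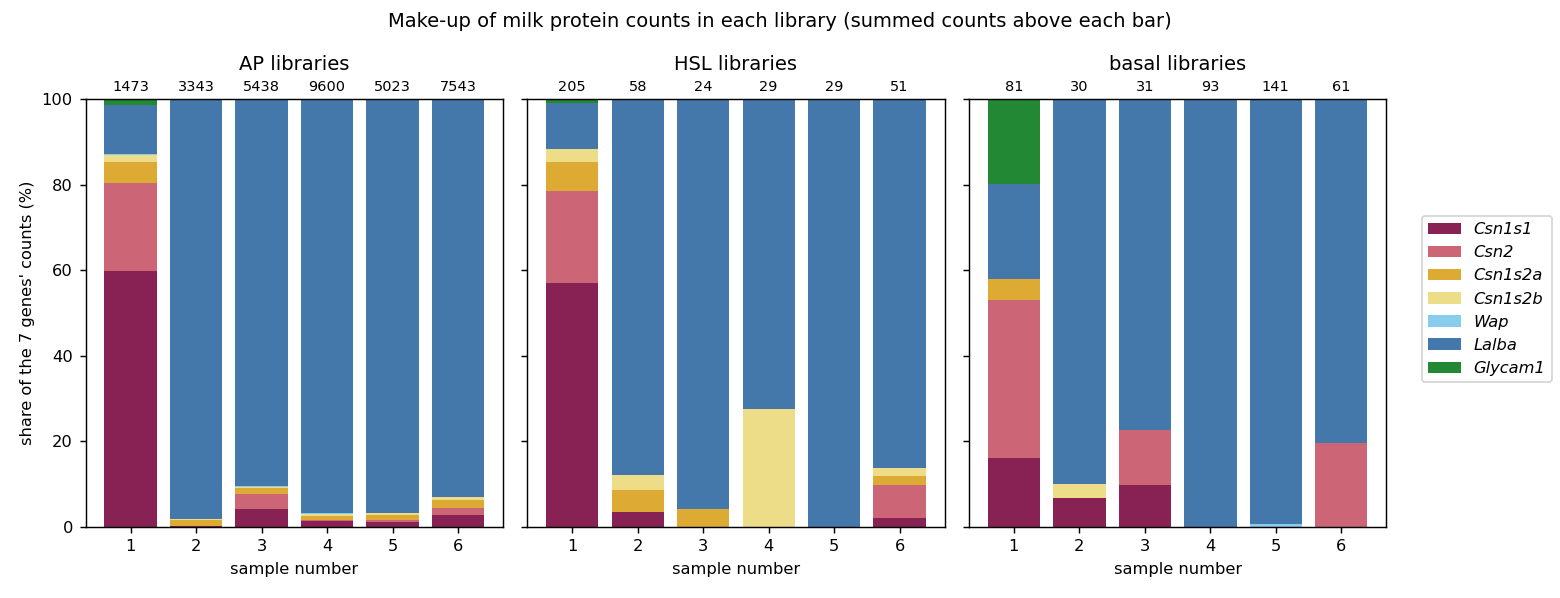
Share of each milk protein gene in the summed counts of the 7 genes, in percent, for every library, with the summed counts above each bar. In sample 1 caseins held 87.0%, 88.3% and 58.0% of the counts in AP, HSL and basal libraries, and in AP samples 2 to 6 Lalba held at least 90.5%.

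Sample 1 thus had its own order of milk genes in all 3 populations: Csn1s1 and Csn2 at their highest, Lalba at its lowest and Glycam1 present. Csn1s2a and Csn1s2b did not share this in AP, where sample 1 lay inside the range of the other AP libraries for both. In basal and HSL libraries Csn1s2a was at its highest in sample 1, from 4 and 14 counts. Csn1s2b had no count in basal sample 1. In its HSL library caseins held 88.3% of 205 counts (95% exact interval 83.1% to 92.4%), and in its basal library 58.0% of 81 counts (46.5% to 68.9%). In the other samples the casein share was 1.73% to 9.32% in AP, 0% to 27.6% in HSL and 0% to 22.6% in basal libraries. Csn1s1 counts per Lalba count were 5.28 in AP sample 1 (95% counting interval 4.47 to 6.26), and 0.00213, 0.0447, 0.0134, 0.0109 and 0.0292 in AP samples 2 to 6. HSL sample 1, at 5.32 (3.35 to 8.81), had a ratio within the interval of its AP library, whereas basal sample 1, at 0.722 (0.325 to 1.56), did not.

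Among AP libraries of samples 2 to 6, Csn1s1 and Csn2 moved over a wide range while Lalba and Csn1s2a kept to a narrower one. Csn1s1 ran from 0.118 to 5.23 CPM and Csn2 from 0 to 4.04, against 55.1 to 179 for Lalba and 0.739 to 3.85 for Csn1s2a. The biological coefficient of variation that edgeR estimated without sample 1, over basal, AP and HSL libraries together, was 1.94 for Csn2 and 1.03 for Csn1s1, at the 99.8 and 96.1 percentile of the genes tested, and 0.619 for Csn1s2a and 0.427 for Lalba, at the 85.2 and 72.8 percentile. With all 18 libraries it was 2.00, 1.74, 0.926 and 0.707 in the same order, at the 99.8, 99.6, 92.7 and 85.7 percentile. AP sample 2 lay lowest of the 6 for Csn1s1, Csn2, Csn1s2a and Csn1s2b, and AP sample 6 was highest for Csn1s2a, Csn1s2b and Lalba.

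**Figure D3:**
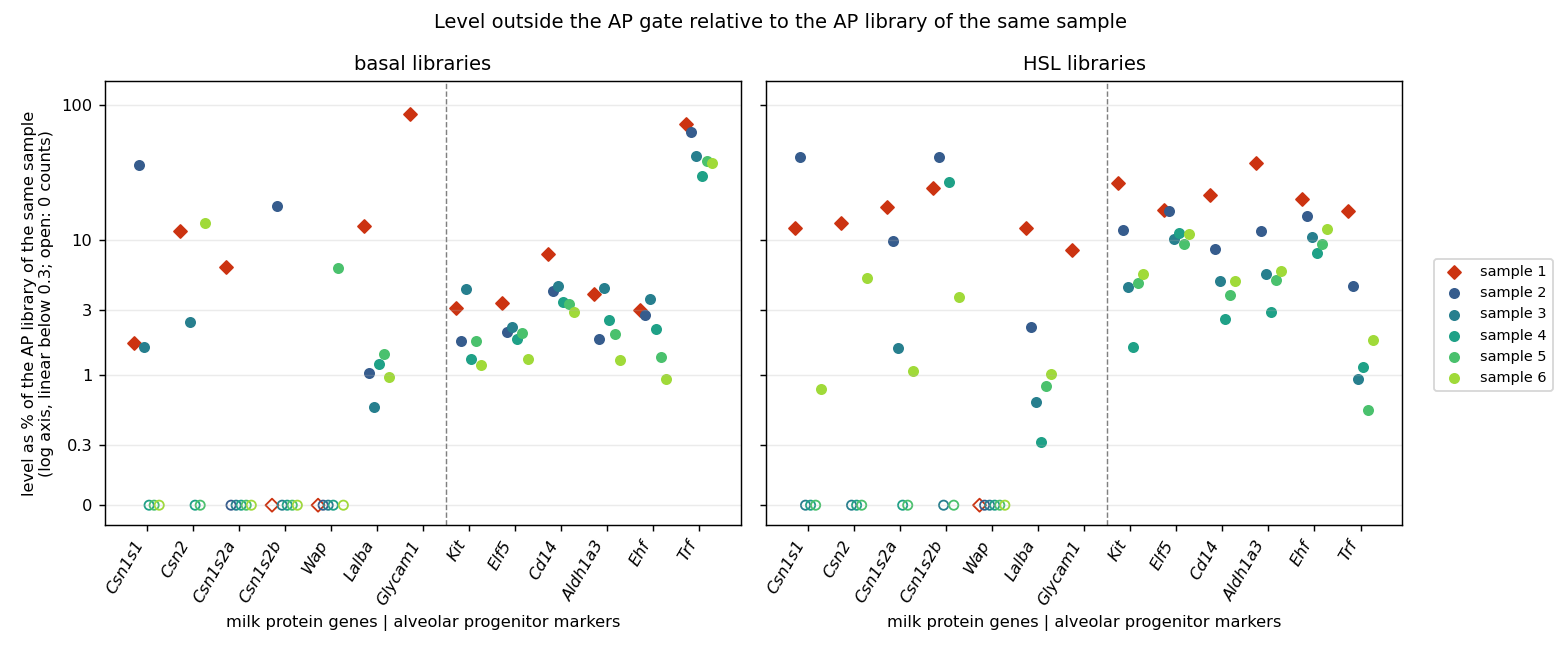
Level of each gene in the basal (left) and HSL (right) library as a percent of the AP library of the same sample, on a log axis that is linear below 0.3, for the 7 milk protein genes and 6 alveolar progenitor markers, with red diamonds for sample 1 and open symbols for 0 counts. In sample 1, where the AP level of Lalba was lowest, at 3.20 CPM, Lalba stood at 12.6% in basal and 12.1% in HSL, above the other 5 samples in both panels.

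Outside the AP gate, Lalba stood at 0.571% to 1.43% of the AP level of the same sample in basal samples 2 to 6 and at 0.315% to 2.24% in HSL samples 2 to 6. In sample 1 it stood at 12.6% and 12.1%, although its 0.403 CPM in basal and 0.388 CPM in HSL were the lowest of each population. The AP library of sample 1, to which these percents refer, held 3.20 CPM, against 55.1 to 179 in AP samples 2 to 6. The alveolar progenitor markers Kit, Elf5, Cd14, Aldh1a3, Ehf and Trf give the same measure for genes of the AP gate. Their median was 1.30% to 4.35% in the basal libraries, with sample 1, at 3.66%, inside the range of the others. In HSL it was 20.8% in sample 1 and 2.75% to 11.7% in samples 2 to 6. None of the 6 markers was at 0 in all libraries of a population, and Trf, which shares 99.5% of its span with another gene, reached 71.8% in basal. In HSL sample 1, Csn1s1 stood at 12.2%, Csn2 at 13.4% and Csn1s2a at 17.4% of AP, all below the marker median of that library, and Csn1s2b, from 6 counts, at 24.0%. How far AP cells or their RNA in the other gates enter these values was not tested.

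Other genes of milk secretion were compared in the same fit, from 4 lists whose tested genes are all shown in the plot of fold changes. Csn3 and Cav1, also on these lists, were at 0 in every library and were not tested. The milk fat globule genes followed the AP gate, with 7 of 8 tested higher in AP than in basal, beside 21.5% of all genes, and 7 of 8 lower in HSL than in AP, beside 20.1%, and a median log2 difference of 3.18 and -3.25 against 0.00 and -0.01 over all genes. Muc1, a membrane mucin of the globule, averaged 331 ± 138 CPM in AP, 8.57 ± 3.13 in basal and 29.97 ± 9.19 in HSL. Btn1a1, which encodes butyrophilin, averaged 566 ± 300, 12.9 ± 10.7 and 24.0 ± 11.1 CPM. Xdh, whose product binds butyrophilin at the globule membrane, was lower in HSL than in AP, with a log2 change of -4.06 ± 0.44 (edgeR, adjusted p = 1.56e-06), as was Mfge8, another globule protein, at -3.71 ± 0.32 (edgeR, adjusted p = 2.30e-07). Plin2, which coats lipid droplets, was 2.41 ± 0.28 higher in AP than in basal (edgeR, adjusted p = 1.28e-06). The exceptions were Lpl, the lipoprotein lipase gene, not called between AP and basal at 0.62 ± 0.32 (edgeR, adjusted p = 0.131), and Folr1, a folate receptor gene, not called between HSL and AP at -0.33 ± 0.28 (edgeR, adjusted p = 0.382). Fabp3 did not pass the filter.

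Among the other secreted milk proteins, 3 of 5 tested were higher in AP than in basal and 5 of 5 were lower in HSL than in AP, beside the same shares of all genes, with medians of 2.18 and -4.31. Ltf, which encodes the iron-binding protein lactoferrin, averaged 2604 ± 1425 CPM in AP, with 95.3 ± 50.9 in basal and 428 ± 197 in HSL. Pigr, the receptor that carries polymeric immunoglobulin into milk, averaged 19.2 ± 10.1, 0.439 ± 0.455 and 0.962 ± 0.867 CPM in the same order. Lcn2, which encodes lipocalin 2, was not called between AP and basal at 0.73 ± 0.36 (edgeR, adjusted p = 0.113) and was lower in HSL than in AP, with a change of -4.64 ± 0.42 (edgeR, adjusted p = 2.92e-07). These genes did not share the pattern of Csn1s1 and Csn2 in sample 1: its AP library was the lowest of the 6 for 5 of 5 of them and for 7 of 8 milk fat globule genes, against 27.9% of all genes. This low place was not particular to milk secretion. It held for 5 of 6 hormone-sensing markers, 4 of 6 alveolar progenitor markers, 4 of 6 lactose synthesis and casein phosphorylation genes and 2 of 3 fibroblast markers. For lactogenic signalling genes it held in 7 of 18, for basal markers in 1 of 6, for endothelial markers in 1 of 5 and for leukocyte markers in 0 of 4. Ltf was 142 CPM in AP sample 1 and 1920 to 3934 CPM in AP samples 2 to 6. Btn1a1 was 108 against 361 to 835 CPM. Lalba lay with the genes that were low in AP sample 1, and Csn1s1, Csn2 and Glycam1 lay opposite to them.

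Of 6 tested genes of lactose synthesis and casein phosphorylation, 3 were higher in AP than in basal and none lower, beside 21.5% and 23.1% of all genes. Between HSL and AP, 4 were higher and 1 lower in HSL, beside 19.8% and 20.1%. B4galt1, the enzyme that alpha-lactalbumin modifies, averaged 72.3 ± 13.5, 170 ± 20.6 and 327 ± 71.8 CPM across basal, AP and HSL, and was 0.94 ± 0.15 higher in HSL than in AP (edgeR, adjusted p = 9.05e-05). Its highest level thus lay in HSL, where the log2 change of Lalba against AP was -6.82. Hk2, a hexokinase gene, was 2.20 ± 0.38 higher in HSL than in AP (edgeR, adjusted p = 0.000151). Slc2a1, the gene for the glucose transporter GLUT1, was called in neither comparison, at 0.24 ± 0.27 and -0.04 ± 0.27 (edgeR, adjusted p = 0.497 and 0.921).

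Lactogenic signalling and transcription was covered by 18 tested genes. Compared with basal, AP libraries had 7 of them higher and 3 lower, beside 21.5% and 23.1% of all genes, and HSL compared with AP had 6 higher and 6 lower, beside 19.8% and 20.1%. Elf5, a transcription factor of alveolar cells, averaged 4.11 ± 1.57, 190 ± 24.8 and 23.9 ± 7.44 CPM across basal, AP and HSL. Prlr, the prolactin receptor gene, ran otherwise, at 65.0 ± 32.3, 497 ± 263 and 2449 ± 690.5 CPM. Stat5b was 1.17 ± 0.10 higher in AP than in basal (edgeR, adjusted p = 2.87e-08) and not called between HSL and AP, at -0.09 ± 0.10 (edgeR, adjusted p = 0.498). The feedback inhibitors Socs1 and Socs2 were lower in AP than in basal, with changes of -2.37 ± 0.17 and -2.16 ± 0.25 (edgeR, adjusted p = 2.53e-09 and 9.99e-07). Cebpb, Nfib and Nr3c1, the genes for C/EBP beta, NFIB and the glucocorticoid receptor, were lower in HSL than in AP, at -3.23 ± 0.24, -1.81 ± 0.16 and -1.79 ± 0.18 (edgeR, adjusted p = 8.32e-08, 2.87e-07 and 8.76e-07). Cebpb, Nfib and Nr3c1 were not called between AP and basal, at -0.36 ± 0.22, -0.09 ± 0.16 and -0.35 ± 0.18 (edgeR, adjusted p = 0.199, 0.691 and 0.118). Cebpb shares 60.4% of its span with another gene. Elf5 in AP sample 1, at 199 CPM, lay inside the 149 to 224 of the other AP libraries, while Prlr, at 120 CPM, lay below their 318 to 802.

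**Figure D4:**
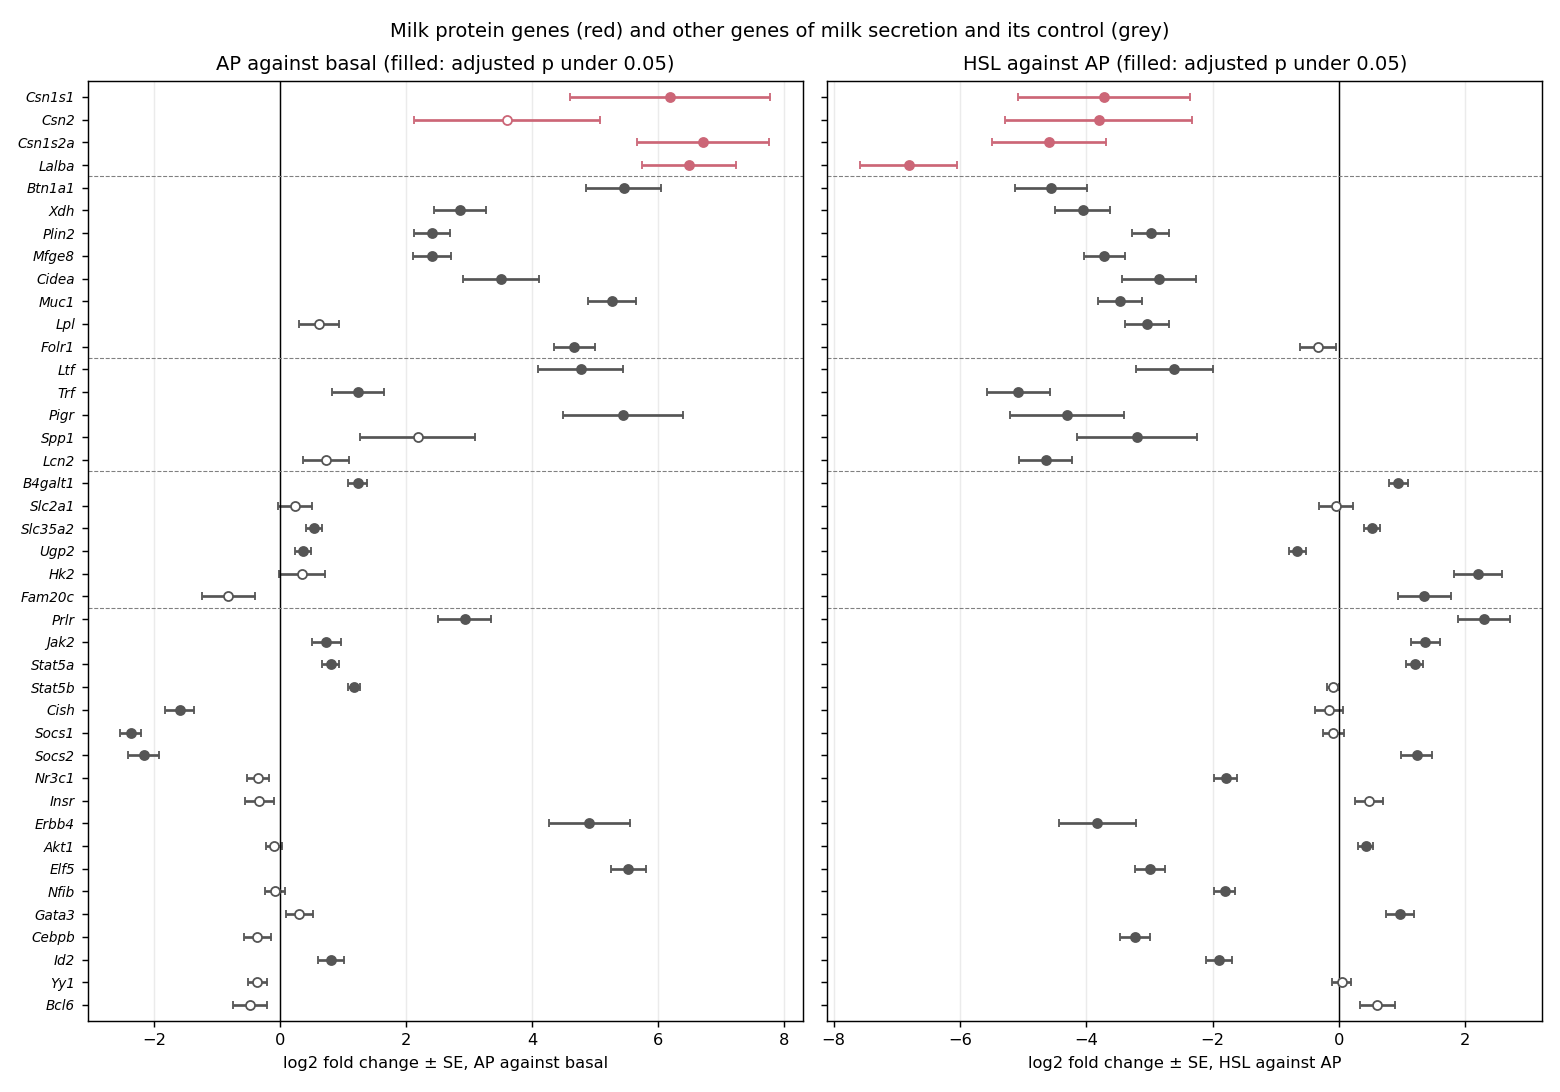
Log2 fold change with its SE for AP against basal (left) and HSL against AP (right), for the 4 tested milk protein genes in red and 37 genes of the 4 lists in grey, separated by dashed lines, with filled points for adjusted p under 0.05. Milk fat globule genes and other secreted milk proteins lie mostly right of 0 on the left and left of 0 on the right, as the milk protein genes do, whereas B4galt1, Prlr and Stat5a lie right of 0 in both panels.

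Around the casein cluster, 13 other protein-coding genes lie within 200 kb of the 4 caseins. Of these, 8 were at 0 in every library, and 5 lie wholly inside another gene. Sult1d1, a sulfotransferase gene whose span begins at -111.6 kb from the start of Csn1s1, had 168 counts in AP, 6 in basal and 13 in HSL libraries, and was 4.49 ± 0.90 higher in AP than in basal (edgeR, adjusted p = 0.000458). Odam, a gene best known in tooth development, had 55 counts in AP, 1 in basal and 8 in HSL libraries. In AP sample 1, Sult1d1 measured 0.422 CPM, inside the 0.273 to 0.923 of the AP libraries, and so did not stand out there as Csn1s1 and Csn2 did.

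**Figure D5:**
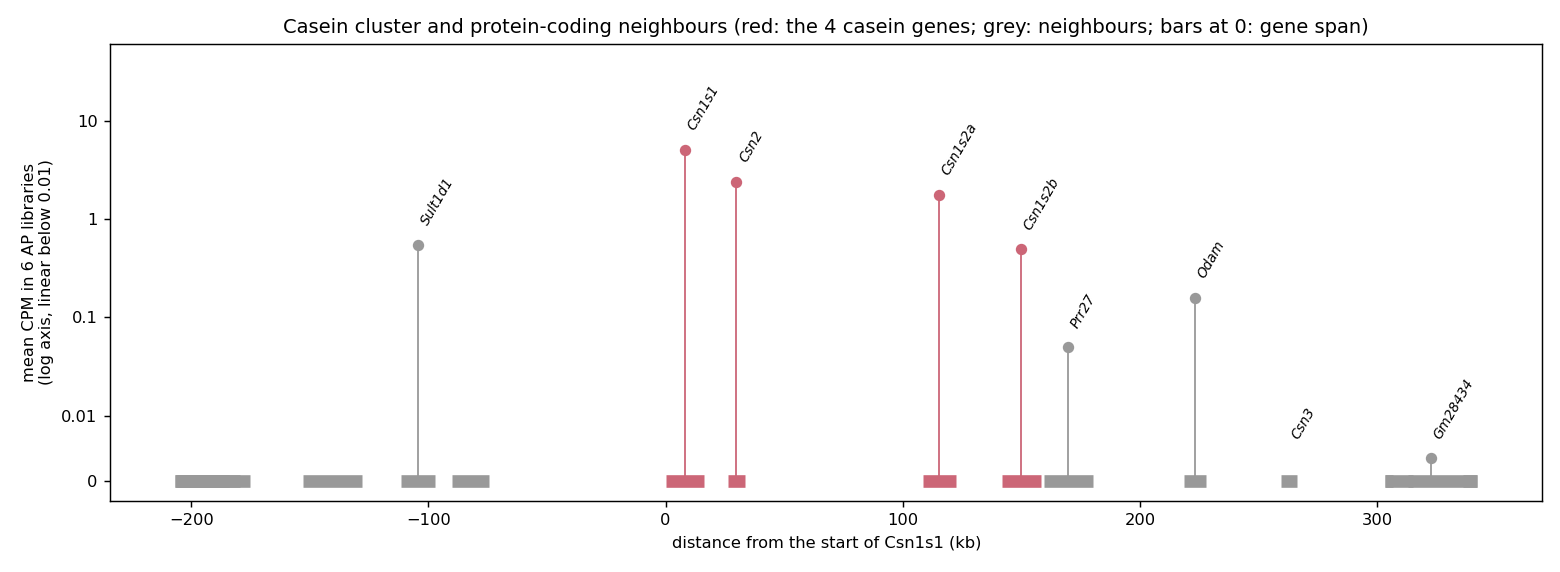
Mean CPM in the 6 AP libraries, on a log axis that is linear below 0.01, against distance from the start of Csn1s1 in kb, with bars at 0 for gene spans, red for the 4 caseins and grey for neighbours. Mean levels were 5.01 CPM for Csn1s1, 2.35 for Csn2, 1.76 for Csn1s2a and 0.489 for Csn1s2b, not scaled by length, and Sult1d1 reached 0.542 CPM.

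The nearest neighbours of the other 3 genes had levels of their own. Tbrg4, on the near side of Wap, averaged 8.94, 10.2 and 9.17 CPM in basal, AP and HSL and was called in no comparison, while Ramp3, on the far side, averaged 7.96, 1.74 and 0.244 CPM. Both genes beside Lalba were near 0: OR5BS1P had no count and Olfr279 had 10, all in basal libraries. Ppp1r1a beside Glycam1 averaged 0.482, 0.0838 and 0.415 CPM in basal, AP and HSL libraries.

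Genes whose level followed each milk gene most closely were sought by Pearson's r of log2(CPM + 0.1) over the 18 libraries, among 10726 genes with a mean of at least 5 CPM. The libraries share 3 populations and 6 sample numbers, so these values describe and do not test. For Lalba the closest were Itm2b, at 0.966, Apod, at 0.963, and Phf11d, at 0.962, followed by Rb1 and Sh3d21. For Csn1s2a they were Plb1, at 0.973, Meltf, at 0.971, and Car2, at 0.968, followed by Rac3 and Hhipl2. Csn1s1 was matched less closely, by Trim47 at 0.928, Zdhhc2 at 0.911, Rttn at 0.908, Pradc1 at 0.906 and Car2 at 0.899. Csn2 was matched least, by Stau2 at 0.878, Nde1 at 0.847, AU020206 and Rttn at 0.841 and Pradc1 at 0.834. Rttn and Pradc1 appear for both Csn1s1 and Csn2, and Car2 for both Csn1s1 and Csn1s2a, while none of the 5 named for Lalba appears for a casein.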

How the data were processed

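RNA-seq libraries were made from 2 ng of total RNA with a Smart-Seq V4 kit and 150 pg of cDNA with Nextera XT, per the labels' protocols. The authors deposited 1 table per library with raw counts per Ensembl gene, RPKM values and other columns such as gene width, per the file headers. The submitters' processing notes name the build GRCm38; aligner and counter: not given in the sources used here. The deposited RPKM values and widths served only to check the files (the width equals the GENCODE M21 gene span for 85.6% of genes). Counts were used as deposited. Of 52636 identifiers 52489 matched a GENCODE M21 symbol, and the 147 others, at most 0.00677% of a library, were left out. No library pair held identical values.

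Genes passing filterByExpr (minimum count 10, population as group) were fitted with edgeR 4.0.16 (R 4.3.3; robust quasi-likelihood, TMM factors, population as the only term, all 18 libraries), and p-values were adjusted by Benjamini-Hochberg over all genes, with 0.05 as threshold. The SE is the log2 fold change over the root of F. The procedure was tested on simulated data. Alternatives were library totals, DESeq2 1.42.0, limma-voom 3.58.1, no filter, the sample number as replicate block, leaving out each sample, and samples 1 to 3 or 4 to 6 only; no filter combined with the block or without sample 1 was added after the data were seen. Deviations from the population means of same-numbered libraries correlated at 0.127 to 0.630 in all 18 pairs, against -0.409 to 0.222 for other pairs, so the numbers, taken from the sample titles, pair the libraries. Named genes are the 7 members, per list and comparison up to 4 called genes with the smallest adjusted p and up to 2 not called, protein-coding neighbours, and the 5 genes most alike. Prlr is named as a population marker, and Nfib is given in AP against basal beside Cebpb and Nr3c1. The members, lists and tests were chosen with earlier results of these data known.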

Additional observations from a re-analysis of the deposited data

Results flagged for a closer look

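In 12 of 20 sets of 6 libraries (1 gene in 1 population), the highest library lay further from its nearest neighbour than Dixon's 95% limit. For normally distributed values chance exceeds that limit in about 1 of 20 sets, but in 6 of the 12 sets all other libraries were at 0, where any count exceeds it, so the number of sets is no test. In 9 of the 12 the library was that of sample 1. For Csn1s1 this held in all 3 populations: basal 0.291 CPM with the next library at 0.0739, AP 16.9 CPM with the next at 5.23, and HSL 2.06 CPM with the next at 0.0484. Csn2 stood out at 0.776 CPM in HSL, with the next at 0.165. Csn1s2a did so at 0.0896 CPM in basal, from 4 counts with no other library above 0, and at 0.247 CPM in HSL. Glycam1 stood out in all 3 populations, at 0.358 (basal), 0.422 (AP) and 0.0353 CPM (HSL), with all other libraries at 0. The remaining 3 were Csn1s2a in AP sample 6, at 3.85 CPM with the next at 1.79, and single counts of Csn1s2b in basal sample 2, at 0.0209 CPM, and of Wap in basal sample 5, at 0.0112 CPM. Lalba was not among them: in AP its lowest library, sample 1 at 3.20 CPM, was within the limit, given a range up to 179 CPM.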

How the results depend on the processing

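Of 195 alternative values for single genes, 164 kept direction and side of the threshold, 19 fell below it, 6 passed it and 6 changed sign. With no filter, 5 genes were higher in AP than in basal in place of 3 of 4, beside 3817 of all 28035 genes. Adding the replicate block to that gave 6, beside 4617 of 28035, and leaving out sample 1 instead gave 6, beside 4483 of 27464. Also with no filter, 1 was higher in HSL than in basal in place of 0, beside 4510 of 28035. With no filter and the block that count was 1, beside 5031 of 28035, and with no filter and no sample 1 it was 2, beside 5298 of 27464. It was 1 with samples 4 to 6 only, beside 4605 of 16197. Leaving out 1 sample gave 0 to 1, beside 3938 to 4983 of all genes. In HSL against basal the unadjusted p was under 0.05 for 0 of the 4 by edgeR and 1 by DESeq2, and DESeq2 and limma-voom called 0. The replicate block changed the call of Csn2 in AP against basal and of no other gene in the filtered fit. Milk genes lower in HSL than in AP numbered 2 to 3 when 1 sample was left out, beside 2751 to 4062 of all genes, and 1 with samples 1 to 3 only. With samples 1 to 3 only, all genes called higher and lower were 1709 and 2009 (AP against basal), 2531 and 3143 (HSL against basal) and 443 and 1048 (HSL against AP). Sign changes, all in HSL against basal and none called, were Csn1s1 at -0.24 (no filter, without sample 1), Csn2 at 0.00645 (limma-voom), 0.13 (samples 1 to 3) and -1.71 to 0.20 when 1 sample was left out (0.20 without sample 6), and Lalba at 0.49 (samples 1 to 3) and -0.58 to 0.00678 when 1 sample was left out (0.00678 without sample 4). Library totals moved the median of all genes from -0.00 to 0.14 in AP against basal and from -0.01 to -0.18 in HSL against AP, and the higher and lower calls from 3544 and 3812 to 4279 and 3147, and from 3256 and 3315 to 2234 and 4043. Csn2 in HSL against AP was lost with library totals (edgeR, adjusted p = 0.0568), limma-voom (0.147), no filter (edgeR, 0.0729), samples 1 to 3 only (edgeR, 0.326) and samples 4 to 6 only (edgeR, 0.0736), Csn1s1 in HSL against AP with no filter (edgeR, 0.0543) and samples 1 to 3 only (edgeR, 0.292), Csn1s2a in HSL against AP with samples 1 to 3 only (edgeR, 0.0718), and Csn1s1 in AP against basal with samples 1 to 3 only (edgeR, adjusted p = 0.0865). Levels under about 0.1 CPM rest on fewer than 10 counts.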
